A study of Homo sapiens with 4 samples.

Results

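Follistatin (FST) and the bone morphogenetic proteins BMP6 and BMP4 were followed in U2OS cells, a human osteosarcoma line, after siRNA against BRPF3, a scaffold protein of histone acetyltransferase complexes. The 3 genes were taken by their symbol in the platform annotation, which gave each of them 1 probe set, out of 14884 genes named on the array and 53617 probe sets in all. They were chosen by their differences between the groups in these same arrays, where FST and BMP6 were higher and BMP4 was lower after BRPF3 siRNA, so those differences are given as a description, without a test.

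In both groups the cells were the same line, transfected with siRNA at 50 nM and taken after 48 hours. The BRPF3 siRNA group held 2 arrays and the control siRNA group, given a scrambled negative control, held 2 arrays, all called biological replicates in the labels. The labels do not state whether the arrays of a group came from separate cultures, so no error or p-value below covers a spread beyond these arrays. Each SD is that of the arrays of the gene alone. The errors of differences and the p-values also draw on the variance of other genes. BRPF3 and the sequences of the siRNAs were not analysed here, so the depth of the knockdown was not checked and the effect of depletion cannot be told apart from an effect of the siRNA itself. In RNA from whole cultures, fewer cells that make a transcript and less of it per cell cannot be told apart either.

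Bone morphogenetic proteins are secreted dimers of the TGF-beta superfamily. They assemble type I and type II receptor kinases, which phosphorylate SMAD1, SMAD5 and SMAD9, and these join SMAD4 to act on genes in the nucleus. Activins, which use SMAD2 and SMAD3 instead, are held off their receptors by follistatin, a secreted glycoprotein that binds activins very tightly and some bone morphogenetic proteins more weakly. BMP4 and BMP6 both drive osteoblast differentiation, and BMP6 is also the signal by which liver endothelium adjusts hepcidin to iron stores.

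The promoters of the 3 genes are shown because FST and BMP6 shared a direction that BMP4 did not. Each window runs from 250 bases before to 50 bases after the start of the gene in RefSeq (GRCh38.p14), 5′ to 3′ on the strand of the gene, at chr5:53480379-53480678 (plus strand) for FST, chr6:7725849-7726148 (plus strand) for BMP6 and chr14:53955001-53955300 (minus strand) for BMP4. For BMP4 this is the most upstream of the 3 starts listed, and the arrays do not tell which start was used. Capitals mark 2 short motifs that SMAD proteins can bind, searched on both strands: the core SMAD box AGAC, which reads GTCT on the other strand, and the GC-rich element GGCGCC.
FST: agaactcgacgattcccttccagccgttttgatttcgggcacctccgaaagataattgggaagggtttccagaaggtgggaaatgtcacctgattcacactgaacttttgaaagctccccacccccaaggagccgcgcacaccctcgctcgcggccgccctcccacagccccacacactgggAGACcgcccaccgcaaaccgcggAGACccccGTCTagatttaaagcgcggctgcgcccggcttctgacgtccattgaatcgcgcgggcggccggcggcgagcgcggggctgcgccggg
BMP6: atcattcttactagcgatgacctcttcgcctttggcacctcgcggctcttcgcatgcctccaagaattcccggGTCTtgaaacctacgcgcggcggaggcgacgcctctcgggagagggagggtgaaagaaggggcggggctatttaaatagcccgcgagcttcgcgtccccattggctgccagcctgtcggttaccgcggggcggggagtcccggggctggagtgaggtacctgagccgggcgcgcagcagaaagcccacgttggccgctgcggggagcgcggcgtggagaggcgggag
BMP4: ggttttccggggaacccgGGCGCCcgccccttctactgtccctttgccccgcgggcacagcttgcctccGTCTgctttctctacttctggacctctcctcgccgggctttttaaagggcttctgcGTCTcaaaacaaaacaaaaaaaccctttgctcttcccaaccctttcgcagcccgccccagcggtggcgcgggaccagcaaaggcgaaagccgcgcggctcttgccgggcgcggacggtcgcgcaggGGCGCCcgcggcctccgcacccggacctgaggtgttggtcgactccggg

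The share of G and C was 63.7% for FST, 66.0% for BMP6 and 66.0% for the BMP4 window shown, and 56.7% and 68.7% for the other 2 BMP4 windows, against a median of 58.7% over 35114 RefSeq promoter windows of this length, and the windows shown held 32, 33 and 32 CpG dinucleotides against a median of 14. The core SMAD box matched 3 times for FST, 1 time for BMP6 and 2 times for BMP4, and 84.0% of all windows hold at least 1 match. GGCGCC matched 2 times in the BMP4 window and 0 times in those of FST and BMP6, and 19.2% of all windows hold it. The other 2 BMP4 windows held 0 matches to GGCGCC and 2 core SMAD boxes each. The CCAAT box was found 1 time each for FST and BMP6 and 0 times in any BMP4 window, and 34.6% of all windows hold it. The GC box GGGCGG numbered 3 for FST, 2 for BMP6, 2 for the BMP4 window shown and 0 and 3 for the other BMP4 windows (45.0% of all windows hold one). The TATA box letters TATAAA were in no window of the 3 genes, and 11.5% of all windows hold them. The AP-1 letters TGACTCA were not in these windows either, and 4.95% of all windows hold them. The same was true of TGACGTCA, the cAMP response element, which 1.85% of all windows hold. Each motif was searched on both strands. A GC box can overlap GGCGCC where their letters run together. A match is a description of letters and was not tied to the binding of any factor here.

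FST, the extracellular brake on activins, stood at a log2 RMA value of 8.43 and 8.61 on the BRPF3 siRNA arrays, against 7.15 and 7.14 on the control siRNA arrays. Both BRPF3 siRNA arrays lay above both controls, with a gap of 1.27 between the nearest arrays, and the controls lay almost on top of each other. The group means were 8.52 ± 0.13 after BRPF3 siRNA and 7.15 ± 0.01 after control siRNA (SD, n = 2 each), a difference of 1.37 ± 0.09 (moderated SE of limma, a linear model that shares variance between genes) or 2.58-fold. Among 10696 tested genes, those whose mean over the arrays was at least 4.59, the median of all probe sets, this difference ranked 8 from the top.

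BMP6, the ligand that was higher, stood at 7.26 and 7.46 on the BRPF3 siRNA arrays, against 6.74 and 6.75 on the control siRNA arrays. The groups did not overlap, and the nearest arrays were 0.505 apart . The means were 7.36 ± 0.15 after BRPF3 siRNA and 6.75 ± 0.01 after control siRNA (SD, n = 2 each), a difference of 0.61 ± 0.10 (moderated SE) or 1.53-fold, which ranked 203 from the top. The difference of BMP6 had the sign of that of FST and was smaller, and BRPF3 siRNA replicate 2 was the highest of the 4 arrays for both genes.

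BMP4, the ligand that was lower, stood at 10.82 and 10.70 on the BRPF3 siRNA arrays, against 11.46 and 11.67 on the control siRNA arrays. The groups again did not overlap, with 0.64 between the nearest arrays, and BRPF3 siRNA replicate 2 was the lowest of the 4. The means were 10.76 ± 0.09 after BRPF3 siRNA and 11.57 ± 0.15 after control siRNA (SD, n = 2 each), a difference of -0.81 ± 0.10 (moderated SE) or 1.75-fold lower, which ranked 100 from the bottom. Here the control arrays were the more spread pair, whereas for FST and BMP6 the BRPF3 siRNA arrays were.

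**Figure D1:**
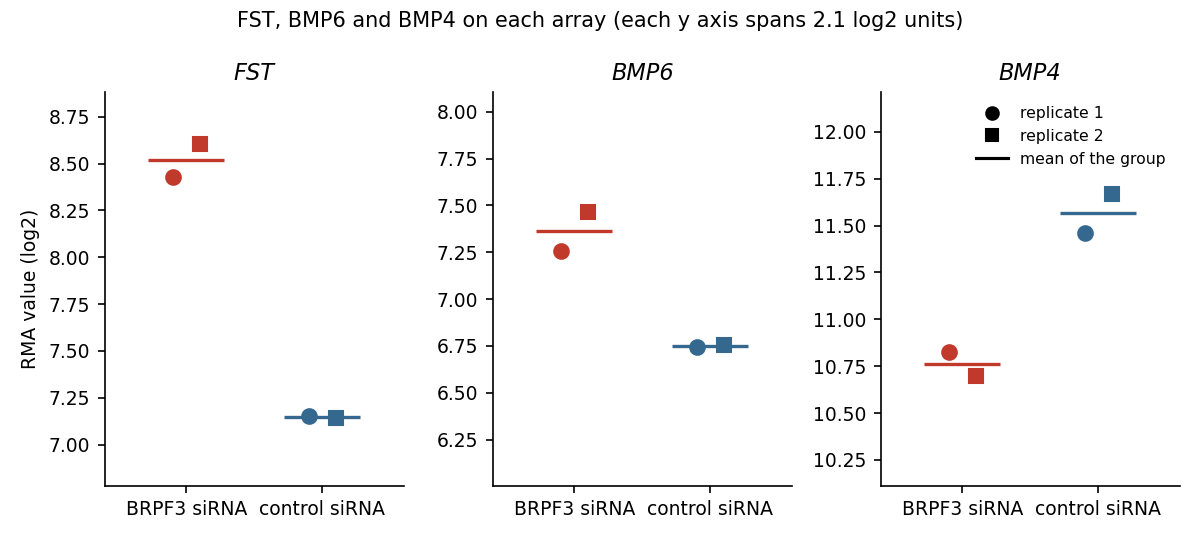
Log2 RMA value of FST, BMP6 and BMP4 on each array, with BRPF3 siRNA in red left of control siRNA in blue, circles for replicate 1, squares for replicate 2 and a line at the mean of each group. The nearest arrays of the groups are apart by 1.27 for FST, 0.505 for BMP6 and 0.64 for BMP4, and levels cannot be set against each other between panels.

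The 3 genes were bright on every array: the lowest array lay 2.55 above the intensity bound of 4.59 for FST, 2.16 above it for BMP6 and 6.11 above it for BMP4. Arrays without overlap between the groups were common in this experiment, at 63.2% of all tested genes, so the separation of the 3 genes does not set them apart, and it was part of their choice. Their differences lay in the tails of the distribution over all tested genes, whose median was -0.03 and whose median size without sign was 0.17. That place, too, follows from their choice by these differences. Taken by replicate number, the differences were 1.27 and 1.46 for FST, 0.51 and 0.71 for BMP6, and -0.64 and -0.97 for BMP4, the pair numbered 2 giving the larger size each time.

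**Figure D2:**
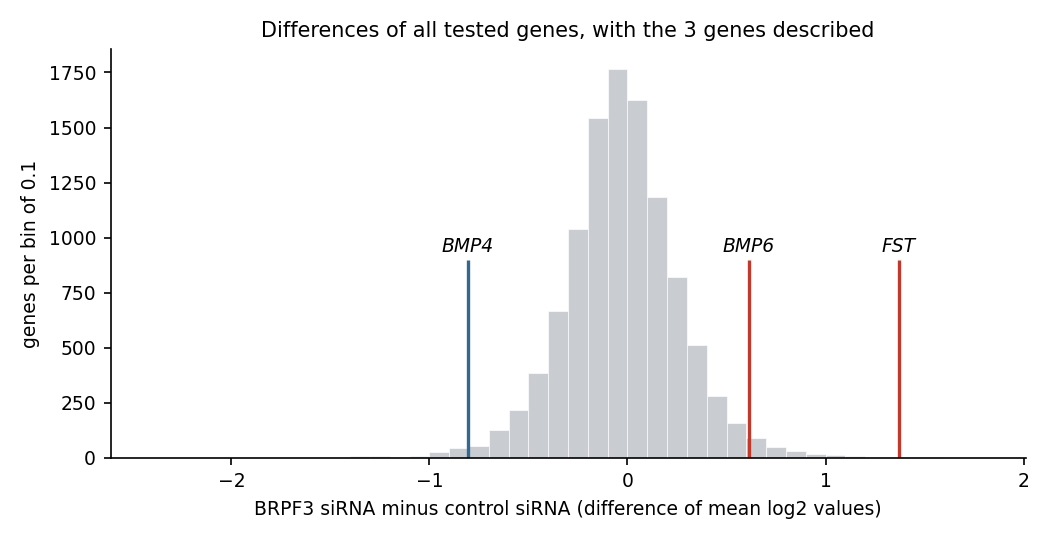
Number of tested genes per bin of 0.1 against the difference of mean log2 values, BRPF3 siRNA minus control siRNA. Vertical lines mark BMP4 at -0.81, BMP6 at 0.61 and FST at 1.37, and their height has no meaning.

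With other between-array scalings and with any 1 of the 4 arrays left out, the difference of FST lay between 1.28 and 1.46, that of BMP6 between 0.51 and 0.72 and that of BMP4 between -0.91 and -0.70. Quantile normalization made the difference of BMP4 smaller in size (-0.70) and the differences of FST (1.42) and BMP6 (0.64) a little larger. Leaving out an array cannot turn the sign of a gene whose groups do not overlap, so the kept direction adds no support.

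**Figure D3:**
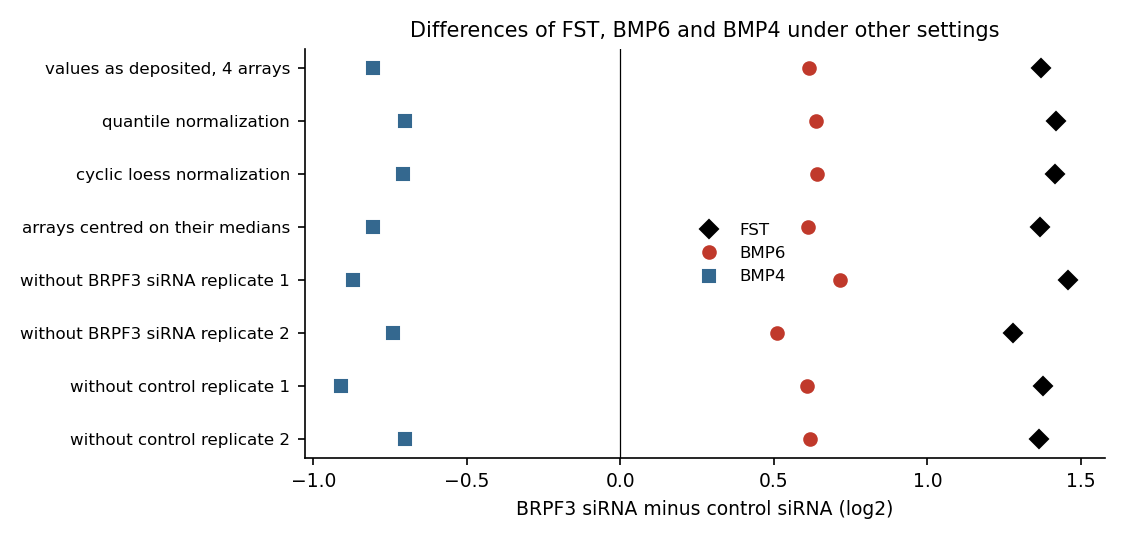
Difference of mean log2 values, BRPF3 siRNA minus control siRNA, of FST (diamonds), BMP6 (circles) and BMP4 (squares) for the deposited values, 3 other scalings and each array left out. FST stays between 1.28 and 1.46, BMP6 between 0.51 and 0.72 and BMP4 between -0.91 and -0.70.

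Beyond these 3 genes, the lists of ligands, receptors, extracellular modulators, processing proteins, SMADs and target genes of the BMP and activin pathways held 121 genes, of which 82 were named on the array, 15 of these were too dim to test and 67 were tested. In limma's test across all genes (Benjamini-Hochberg adjusted p under 0.05) 10 of the 67 rose and 3 fell, 19.4% in all, against 15.8% of all tested genes, 6.32% rising and 9.44% falling. The share that changed in either direction was near that of all genes. By direction, 14.9% of the 67 rose and 4.48% fell, shares that are also given without a test. Of the 67 differences 48 were positive (71.6%), and their median was 0.14, against 44.9% of all tested genes and a median of -0.03, values that are given as a description without a test of the lists. The calls depended on the arrays, and not only in these lists. With any 1 array left out, fewer of the 67 and fewer of all tested genes were called than with all 4. Such a fit leaves 1 array in a group, so only sizes are given here. The median of the 67 differences was 0.16 and 0.11 without control replicate 1 and 2. It was 0.16 and 0.11 without BRPF3 siRNA replicate 1 and 2, and that of all tested genes was -0.03 each time. Falls made up 59.9% of the calls over all genes, and 48.4% once arrays were quantile normalized. The pathway genes gave 10 rises and 2 falls after quantile normalization, 17.9% in all, against 13.9% of all tested genes.

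Among the other BMP ligands, 0 of 6 tested genes rose and 0 fell in limma's test (6.32% and 9.44% of all tested genes). An unadjusted p under 0.05 was found for 1 of the 6, against 3706 of all 10696 tested genes. GDF7, a ligand of the developing spinal cord and tendon, came nearest, with a difference of 0.36 ± 0.10 (adjusted p = 0.0637). BMP2, which induces bone, differed by 0.21 ± 0.09 (95% interval -0.01 to 0.43, adjusted p = 0.153). BMP5, a close relative of BMP6, differed by -0.17 ± 0.08 (95% interval -0.36 to 0.02, adjusted p = 0.189), and BMP3, which opposes osteogenic ligands, by 0.05 ± 0.08 (adjusted p = 0.699). BMP10, BMP15, BMP8B, GDF2, GDF3, GDF5 and GDF6 were below the intensity bound.

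Of the ligands of the activin and TGF-beta branches, 2 of 6 tested genes rose and 0 fell (6.32% and 9.44% of all tested genes). GDF11, a close relative of myostatin and a ligand that follistatin binds, stood at 8.40 and 8.40 on the BRPF3 siRNA arrays, against 8.02 and 8.02 on the control siRNA arrays, a rise of 0.38 ± 0.08 or 1.30-fold (adjusted p = 0.0304). Its arrays were nearly identical within each group (SD 0.0001 and 0.0006), so its SE came almost wholly from the variance that limma shares between genes. AMH, the anti-Müllerian hormone, rose by 0.34 ± 0.08 (adjusted p = 0.0399), but its control arrays, at 4.61 and 4.58, lay at the intensity bound, where differences are compressed. GDF10 differed by 0.10 ± 0.08 (adjusted p = 0.448), and LEFTY1, an inhibitor of NODAL, by -0.23 ± 0.26 (adjusted p = 0.571), with 5.17 and 4.33 on the BRPF3 siRNA arrays. The activin subunit genes INHBA and INHBB, and TGFB1 to TGFB3, were not analysed here, so the main ligands that follistatin holds back have no value beside it.

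Of the extracellular antagonists and modulators other than FST, 1 of 12 tested genes rose and 2 fell (6.32% and 9.44% of all tested genes). FSTL3, which like follistatin binds activins, rose: it stood at 8.49 and 8.54 on the BRPF3 siRNA arrays, against 8.14 and 8.09 on the control siRNA arrays, a difference of 0.40 ± 0.08 or 1.32-fold (adjusted p = 0.0299). SOSTDC1, a secreted antagonist of BMP and Wnt signals, fell: it stood at 5.13 and 5.01 on the BRPF3 siRNA arrays, against 5.83 and 6.06 on the control siRNA arrays, a difference of -0.87 ± 0.11 (adjusted p = 0.0127). CHRDL1, a chordin-like antagonist that binds BMP4, fell by 0.52 ± 0.08 (adjusted p = 0.0181), and its groups did not overlap. SOST, the osteocyte protein sclerostin, differed by 0.30 ± 0.08 and did not pass (adjusted p = 0.0684). Noggin (NOG) and chordin (CHRD), the classical antagonists of BMP4, differed by 0.11 ± 0.10 (adjusted p = 0.498) and 0.21 ± 0.11 (adjusted p = 0.235), and are named here after their values were seen.

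Of the receptors and coreceptors 4 were tested, and 0 rose and 0 fell in limma's test (6.32% and 9.44% of all tested genes). An unadjusted p under 0.05 was found for 1 of the 4, against 3706 of all 10696 tested genes. ACVRL1, a type I receptor of endothelial cells, differed by -0.34 ± 0.11 (adjusted p = 0.0819) and the coreceptor endoglin (ENG) by -0.20 ± 0.08 (adjusted p = 0.161). The decoy receptor BAMBI differed by 0.16 ± 0.09 (adjusted p = 0.262) and NEO1, a receptor of the RGM coreceptors, by 0.05 ± 0.08 (adjusted p = 0.689). The receptors ACVR1, BMPR1A, BMPR1B, BMPR2, ACVR2A and ACVR2B were not analysed here.

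Genes that process ligands or hold them in the matrix gave 4 rises and 0 falls among 13 tested, with 12 of the 13 differences above 0 and a median of 0.19, against 6.32% rising, 9.44% falling, 44.9% above 0 and a median of -0.03 over all tested genes. FBN1, the microfibril protein fibrillin-1, which tethers latent TGF-beta and BMP complexes, stood at 6.97 and 7.02 on the BRPF3 siRNA arrays, against 6.30 and 6.38 on the control siRNA arrays, a rise of 0.66 ± 0.08 or 1.58-fold (adjusted p = 0.0127). The latent TGF-beta binding proteins LTBP4 (0.52 ± 0.09, adjusted p = 0.0236) and LTBP1 (0.38 ± 0.08, adjusted p = 0.0304) rose as well, as did PCSK5, a convertase that cuts ligand precursors (0.41 ± 0.08, adjusted p = 0.0310). The exception in sign was the astacin protease TLL1 (-0.17 ± 0.11, adjusted p = 0.299), and TLL2 differed by 0.11 ± 0.28 (adjusted p = 0.812). FURIN, a convertase that cuts BMP4 precursors, differed by 0.04 ± 0.09 (adjusted p = 0.766), and was named after its value was seen.

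Among SMADs and their regulators, 1 of 15 tested genes rose and 1 fell (6.32% and 9.44% of all tested genes). SMAD3, the effector of activin and TGF-beta receptors, stood at 6.04 and 6.07 on the BRPF3 siRNA arrays, against 5.70 and 5.63 on the control siRNA arrays, a rise of 0.39 ± 0.08 (adjusted p = 0.0307). SMAD4, the partner common to both branches, fell by 0.42 ± 0.09 (adjusted p = 0.0391), a call that did not hold after quantile or cyclic loess normalization. SMAD6, the inhibitory SMAD that BMP signals induce, differed by 0.39 ± 0.10 and narrowly missed the threshold (adjusted p = 0.0537). SKIL, a corepressor of SMAD complexes, differed by -0.25 ± 0.10 (adjusted p = 0.130).

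Of the listed BMP target genes 1 of 12 tested rose and 0 fell (6.32% and 9.44% of all tested genes). Of the 12 differences 8 were above 0 (66.7%), with a median of 0.13, against 44.9% and a median of -0.03 over all tested genes. SMAD6, given above, is also on this list. GATA2, a transcription factor of blood progenitors, rose by 0.47 ± 0.09 (adjusted p = 0.0271). It was dim, at 5.39 and 5.41 on the BRPF3 siRNA arrays and 4.84 and 5.01 on the control siRNA arrays, with the bound at 4.59. RUNX2, the master regulator of osteoblasts, differed by -0.16 ± 0.09 (adjusted p = 0.275), and the homeobox gene MSX1 by -0.22 ± 0.15 (adjusted p = 0.346). ID1 to ID4, widely used readouts of BMP signalling, were not analysed here. Of the activin and TGF-beta target genes other than FST 2 of 9 tested rose and 0 fell (6.32% and 9.44% of all tested genes). They were FSTL3, given above, and ADAM12, a metalloprotease that TGF-beta induces, which rose by 1.45 ± 0.11 or 2.73-fold (adjusted p = 0.00756). SKIL, given above, is also on this list and had its lowest difference (-0.25), which did not pass. CCN2, a matricellular growth factor, differed by -0.13 ± 0.20 (adjusted p = 0.673). The mean of all its probe sets differed by -0.32 and did not pass either (limma, adjusted p = 0.364).

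**Figure D4:**
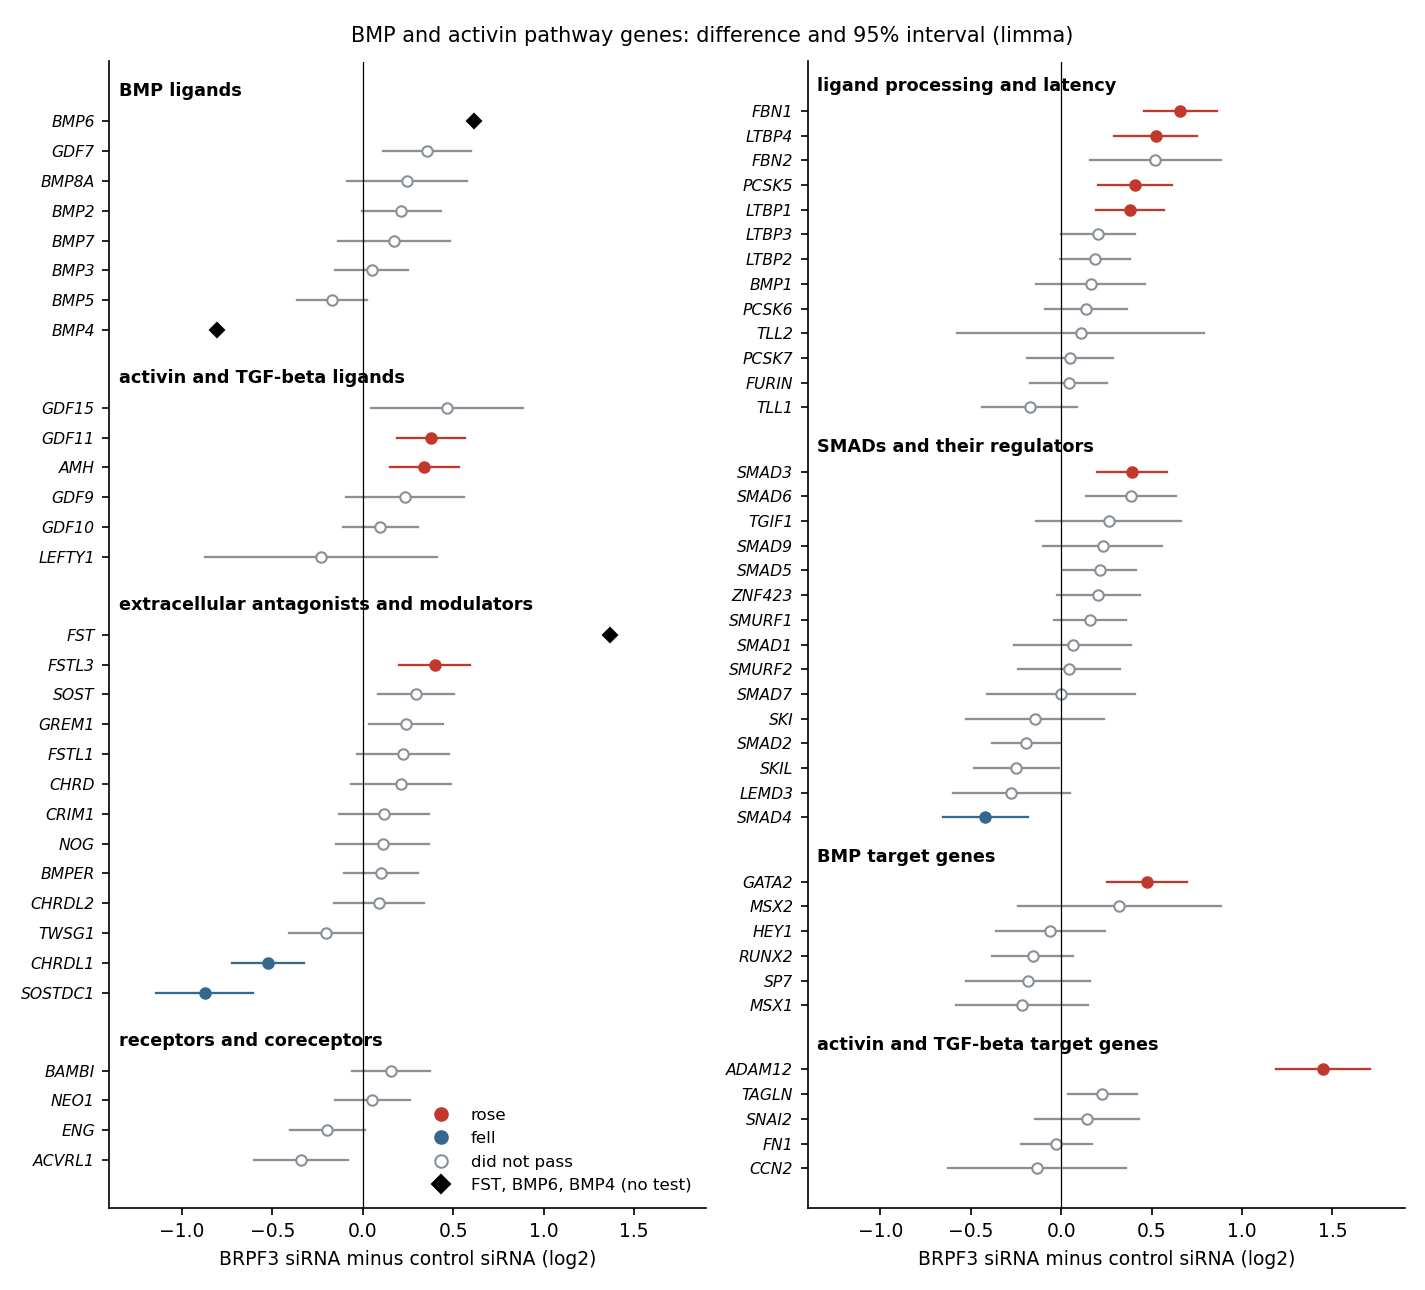
Difference of mean log2 values, BRPF3 siRNA minus control siRNA, of the 67 tested pathway genes with 95% intervals from limma, by role, and of FST, BMP6 and BMP4 as black diamonds without interval. Each gene is drawn once, filled red for the 10 that rose, filled blue for the 3 that fell (SMAD4, CHRDL1 and SOSTDC1) and open for those that did not pass.

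The tested genes whose 4 values, centred on the mean of the gene, lay closest to those of FST were GPNMB, a glycoprotein of lysosomes, PLXDC2 and ADAM12, at root mean square distances of 0.0354, 0.0461 and 0.0506 log2 units. Closest to BMP6 were IL31RA, a cytokine receptor, IGFBPL1 and the zinc finger gene ZFP3, at 0.0203, 0.0210 and 0.0213. Closest to BMP4 were ZKSCAN3 at 0.0196, RIGI, a sensor of foreign RNA, at 0.0308 and the antagonist SOSTDC1 at 0.0351. ZKSCAN3 stood at 5.11 and 4.96 on the BRPF3 siRNA arrays, against 5.73 and 5.98 on the control siRNA arrays. All these values come from the same 4 arrays, so the likeness is a description over 4 points.

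**Figure D5:**
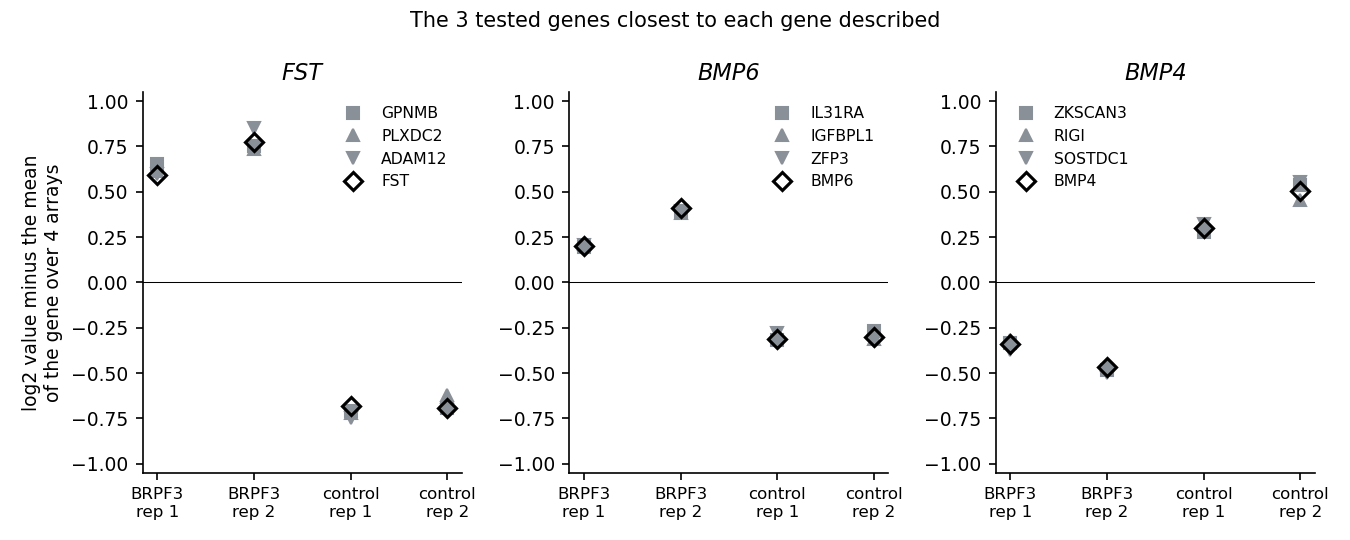
Log2 value minus the mean of the gene over the 4 arrays, for FST, BMP6 and BMP4 (open diamonds) and the 3 tested genes closest to each (grey), with the BRPF3 siRNA arrays left of the control siRNA arrays. The grey points lie within root mean square distances of 0.0196 to 0.0506 of the diamonds.

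Of the 9 osteoblast markers, RUNX2 and SPP1 were above the intensity bound on every array. SP7 lay near it (4.55 and 4.59 on the BRPF3 siRNA arrays, 4.95 and 4.56 on the control siRNA arrays), IBSP was below it and the other 5 were not analysed here. A place above the bound cannot check the labelled cell type, because 10696 of the 14884 named genes lay there. Of 14 tested markers of epithelial cells, leukocytes, endothelial cells, fibroblasts, adipocytes and chondrocytes, 1 rose, PPARG (0.98 ± 0.14, adjusted p = 0.0165), and 3 fell, KRT18 (-0.49 ± 0.09, adjusted p = 0.0231), LAPTM5 (-0.88 ± 0.13, adjusted p = 0.0170) and LUM (-0.80 ± 0.08, adjusted p = 0.00878). That was 28.6% of the 14, 7.14% rising and 21.4% falling, against 15.8% of all tested genes, 6.32% rising and 9.44% falling. Their differences were above 0 for 7 of the 14. Markers of 1 cell type did not all share a sign: EPCAM differed by 0.27, CLDN4 by -0.53, CD68 by 0.01 and THY1 by 0.21, none of which passed. In all 14 of the 17 named markers of these other cell types had a mean above the bound, while PECAM1, KDR and DCN were below it. Among the 14 were KRT18 (mean 10.16 over the 4 arrays), SOX9 (10.69), ERG and CLDN5 of endothelial cells and THY1 and LUM of fibroblasts. The part of these shifts in the differences of FST, BMP6 and BMP4 was not tested.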

How the data were processed

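Gene expression was measured on Affymetrix whole-transcript arrays, 1 per sample. The authors deposited log2 values for 53617 probe sets, made with RMA per the submitters' processing notes, without version or settings. RMA removes shifts common to all transcripts and compresses differences of dim probe sets. Precision is limited by the number of arrays.

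The platform annotation named 16098 probe sets, 1 gene each. Of several probe sets of a gene (779 genes) the one with the highest mean was used, and genes with a mean under 4.59 were left out. Differences were tested with limma 3.58.1 (R 4.3.3, lmFit and eBayes, two-sided, Benjamini-Hochberg over 10696 genes), which was first tested on simulated data. With 2 arrays against 2, an exact permutation test cannot reach the threshold.

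The 3 genes, the lists and the tests were chosen with earlier results of these data known. Named were the 3 genes, list genes that passed, the 2 highest and 2 lowest of each list by moderated t, and the 3 genes nearest to each of the 3 genes. RefSeq promoters matched 3 of 3 genes. Alternatives were other scalings, a replicate block, eBayes with trend or robust, other filters, the mean of probe sets, all probe sets and each array left out.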

Additional observations from a re-analysis of the deposited data

How the results depend on the processing

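The number of changed genes, 1686, came to 2645 when eBayes followed intensity, 409 with no filter on intensity and 1008 when all probe sets, named or not, were fitted together, and ran from 0 to 791 with 1 array left out. The number of changed pathway genes, 13, was 3 with no filter on intensity, 3 with all probe sets together and ran from 0 to 8 with 1 array left out. More features were tested without the filter and with all probe sets, and where a control array was left out the spread of the remaining one was taken from the other group. Other settings gave 1482 to 2183 changed genes. For pathway genes the others, eBayes that followed intensity included, gave 11 to 18. SOSTDC1, FBN1 and ADAM12 were the 3 pathway genes that passed both with no filter and with all probe sets. AMH lost its call when eBayes followed intensity, and SMAD4 lost it after quantile and cyclic loess normalization; cyclic loess was chosen after the data were seen. SMAD6 passed when eBayes followed intensity (adjusted p = 0.0280) and with a 75th percentile filter (adjusted p = 0.0176). AMH, SOSTDC1, PCSK5, SMAD3 and GATA2 lay under that filter.

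The replicate numbers were not shown to pair the arrays: the labels state no shared day or batch, and over the tested genes the deviations of equally numbered arrays correlated at 0.141. With the replicate number as a block, 1604 genes and 13 pathway genes changed, where AMH and SMAD4 lost and FBN2 and SMAD6 gained a call, and the differences of FST (1.37), BMP6 (0.61) and BMP4 (-0.81) are the same by construction.

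With 1 array left out, signs turned for these genes among those named in the text, none of which had passed: CCN2 ran from -0.40 to 0.13 (0.04 without BRPF3 siRNA replicate 2), FURIN from -0.0112 to 0.0944 (-0.00341 without control replicate 2), LEFTY1 from -0.65 to 0.19 and TLL2 from -0.23 to 0.45 (-0.20 without control replicate 2). The cause was not tested.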
